A study of Mus musculus with 59 samples.

Results

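A set of 7 genes that control the mRNA an egg stores for its embryo is described here in cloned mouse embryos: Zar1, Zar1l, Pabpn1l, Ybx2, Cpeb1, Pabpc1l and Lsm14b. They were chosen by name, and all 7 of 7 were found among the 24421 genes of the expression table. Each had at least 1 FPKM in at least 1 of the 4 columns used, as had 13410 genes in all. FPKM counts sequenced fragments relative to the length of the transcript and to library size.

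A growing oocyte makes more mRNA than it translates and keeps much of it dormant, with a short poly(A) tail and bound by masking proteins. When meiosis resumes, cytoplasmic polyadenylation lengthens selected tails and recruits these messages for translation. After fertilization or activation the stored pool is degraded while the genome of the embryo is switched on, which in the mouse happens mainly at the 2-cell stage. The products of these genes act at different points of that sequence, as mRNA-binding storage factors, poly(A)-binding proteins, a masking protein, a polyadenylation factor and a repressor.

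Cloning was by somatic cell nuclear transfer: a donor nucleus replaces that of the oocyte, and activation then starts cleavage. The labels list 59 samples, of which 24 are poly(A) RNA libraries and 35 are chromatin libraries that were not analysed here. The 4 groups used had 5 libraries each: without treatment, 1-cell embryos (13 to 14 h from activation), early 2-cell embryos (20 to 21 h) and late 2-cell embryos (33 to 34 h), and with trichostatin A (TSA), which inhibits histone deacetylases, a further late 2-cell group of the same age (33 to 34 h). All 4 groups have the strain BDF1, and the donor cells named in the labels are cumulus cells, the somatic cells that surround the oocyte. The labels' growth protocol names C57BL/6n oocyte donors of 5 to 7 weeks but describes in vitro fertilization, so whether it holds for the cloned embryos is not stated. Neither how much TSA was used, and for how long, nor how many embryos went into a library is stated in the labels.

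The table holds 1 value per gene and group, made by the authors, so no value below has an error, no difference has a test, and neighbours in an order of levels cannot be told apart by their spread. Differences are on the deposited log2(FPKM + 1) scale, and only a difference of at least 1, 2-fold on that scale, counts as higher or lower. FPKM is a share of the library, so fewer transcripts of a gene and more of the others cannot be told apart. The libraries were made from poly(A) RNA, so for messages whose tails change in length, RNA amount and capture cannot be told apart either. Depth is unknown, and low values need care. Gapdh, an enzyme of glycolysis common to most cells, had 0.0282, 0.173, 0.908 and 0.383 FPKM in the order of groups above. Why its values were this low was not tested. The summed FPKM of the columns were close, from 505140 to 523069.

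Markers of the labelled material were as follows. All 15 markers of oocytes and eggs were at or above 1 FPKM in each of the 4 columns. Their sum was 8207 FPKM at the 1-cell stage, 8458 at the early and 2964 at the late 2-cell stage, and 2284 with TSA. Within it Dppa3 went from 3321 FPKM at the 1-cell to 4830 at the early 2-cell stage. Between these stages 13 of the 15 lay below 0 as deposited, where 52.7% of all genes did. Their median was -0.52, against -0.03 over all genes. At 2-fold 4 were lower and 0 higher, beside 5.37% and 2.8% of all genes. From the 1-cell to the late 2-cell stage 8 of the 15 were at least 2-fold lower and 1, Zp1, higher as deposited. Of all genes, 13.2% were lower and 43.9% higher in that comparison. Of 20 markers of the 2-cell stage, 9 were at or above 1 FPKM in 1-cell and in early 2-cell embryos, 17 in late 2-cell embryos and 18 with TSA. The 24 markers of cumulus and granulosa cells summed to 47.8, 52.7, 126 and 138 FPKM in the 4 columns, with 7, 8, 9 and 10 of them at or above 1 FPKM. Of their defining markers, Amh was listed at 0 in both earlier columns, Inha in the early and both late 2-cell columns, and Fshr with TSA. Others went up: Amhr2 was at 3.01 FPKM in late 2-cell embryos without and 4.96 with TSA, Fshr at 1.64 without, and most of the sum in untreated late 2-cell embryos came from Nr5a2, at 52.7 FPKM, and Gja1, at 29.5. These sums were higher at the late 2-cell stage, where most of the 7 genes were lower, and their part in the results was not tested.

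Across the whole window, 6 of the 7 genes were at least 2-fold lower in late 2-cell than in 1-cell embryos and Ybx2 was not. The median difference of the 7 was -2.29, against 0.78 over all 13410 genes. Of all genes, 13.2% were at least 2-fold lower in this comparison and 43.9% at least 2-fold higher. All 7 genes had at least 10 FPKM in 1-cell embryos, and among the 4422 genes with that level 28.3% were at least 2-fold lower, with a median of -0.20. The summed FPKM of the 7 was 235 at the 1-cell stage, 132 at the early and 71.8 at the late 2-cell stage, and 62.8 with TSA. The share of Ybx2 in that sum was 8.64%, 24.6%, 45.8% and 52.2% in the same order, so the gene that was number 5 of the 7 by level at the 1-cell stage was first at the late 2-cell stage.

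**Figure D1:**
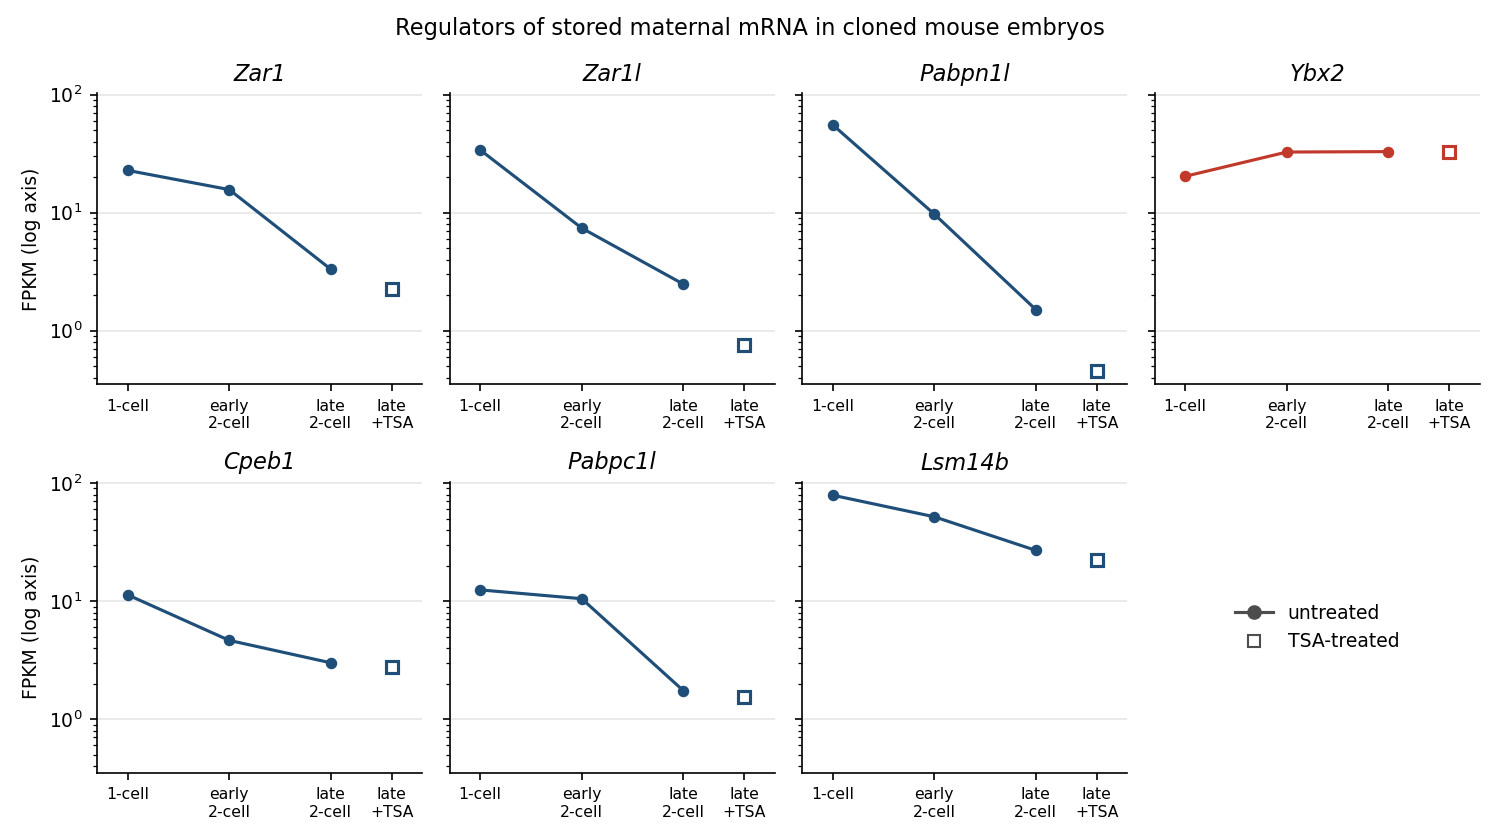
FPKM of each of the 7 genes (y axis, log scale, shared by all panels) in untreated 1-cell, early 2-cell and late 2-cell embryos (filled circles joined by lines) and in TSA-treated late 2-cell embryos (open squares), with 1 deposited value per point and no error. Pabpn1l drops from 55.4 to 1.51 FPKM between the 1-cell and late 2-cell stages, while Ybx2 (red) goes from 20.3 to 32.9 FPKM.

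Between the 1-cell and early 2-cell stages 3 of the 7 genes, Pabpn1l, Zar1l and Cpeb1, were at least 2-fold lower and 0 were 2-fold higher. Over all genes, 5.37% were at least 2-fold lower and 2.8% at least 2-fold higher, and among genes with at least 10 FPKM in 1-cell embryos 10.8% were lower. Between the early and late 2-cell stages 4 of the 7, Pabpn1l, Pabpc1l, Zar1 and Zar1l, were at least 2-fold lower and 0 higher, while 5 or 6 were lower under the 3 other scalings. Over all genes 10.4% were lower and 45.7% higher in that step, and among genes with at least 10 FPKM in 1-cell embryos 22.7% were lower. The median of the 7 was -0.60 in the first step and -1.27 in the second, while that of all genes was -0.03 and 0.84. The second step is the longer one, with collections at 13 to 14 h, 20 to 21 h and 33 to 34 h. The share of a decrease that lies in a step, given below, is therefore not a rate. The split of all genes depends on the scaling: higher genes made up 34.3% of the 2-fold differences in the first step and 81.4% in the second as deposited, against 48.1% and 50.3% after quantile normalization. Over the whole window that share was 76.8% as deposited and 48.9% after quantile normalization.

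Zar1 and Zar1l encode the zygote arrest proteins, RNA-binding zinc finger proteins that hold maternal mRNA in the oocyte, and Zar1 is named for the arrest of embryos from mothers that lack it. Zar1 lies on chromosome 5 from 72577113 to 72581361 (RefSeq, GRCm38.p6). It was at 22.8 FPKM at the 1-cell stage, 15.7 at the early and 3.31 at the late 2-cell stage, and 2.28 with TSA. Most of its decrease came late: the difference was -0.51 in the first step and -1.95 in the second, so 20.8% of the log2 decrease from 1-cell to late 2-cell lay before the early 2-cell stage, and from 8.67% to 14.6% under the 3 other scalings. Zar1l, on the same chromosome from 150507055 to 150518194, was at 33.9, 7.39, 2.48 and 0.763 FPKM. Its difference was -2.06 in the first step and -1.27 in the second as deposited, with 61.8% of the whole in the first. With median-ratio scaling that share was 52.5% and after quantile normalization 42.0%, so which step held more depends on the scaling. Zar1l was thus above Zar1 in the 1-cell column, at 1.49 times its FPKM, and below it in the other 3 columns, at 0.472, 0.748 and 0.335 times.

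Pabpn1l and Pabpc1l encode poly(A)-binding proteins of the oocyte and early embryo. Pabpn1l is a relative of the nuclear poly(A)-binding protein and is required in the mouse for the clearance of maternal mRNA. The gene lies on chromosome 8 from 122619471 to 122622735 and was at 55.4 FPKM at the 1-cell stage, 9.71 at the early and 1.51 at the late 2-cell stage, and 0.455 with TSA. As deposited it had the lowest difference of the 7 in both steps, -2.40 and -2.09. Over the whole window its difference was -4.49, which ranked 15 from the lowest among 13410 genes. In plain FPKM 2.72% of its 1-cell value was left at the late 2-cell stage.

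Pabpc1l, also called Epab, encodes the cytoplasmic poly(A)-binding protein of the oocyte, which protects tails and promotes translation of recruited messages. It lies on chromosome 2 from 164024770 to 164050538 and was at 12.4, 10.5, 1.74 and 1.53 FPKM. The first step accounted for 9.95% of its log2 decrease, with a difference of -0.23, and the second for the rest, with -2.06. By the distance between centred profiles over the 4 columns, Pabpc1l and Zar1 were the closest pair of the 7 (0.33), and Pabpn1l and Ybx2 the farthest apart (4.60). Zar1l was closer to Pabpn1l (0.94) than to Zar1 (1.23).

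Ybx2, also called Msy2, encodes a Y-box protein that coats stored mRNA in germ cells and keeps it stable and untranslated. It lies on chromosome 11 from 69935805 to 69941604. Its values were 20.3 FPKM at the 1-cell stage, 32.6 at the early and 32.9 at the late 2-cell stage, and 32.8 with TSA. Ybx2 was the highest of the 7 by difference in each step, at 0.66 and 0.01, and 0.67 over the whole window. That last value lay near the median of all genes, with 47.1% of genes below it. In the first step 92.7% of genes lay below Ybx2, though its difference stayed short of 2-fold. That difference was 0.80 with median-ratio scaling, 0.76 with quantile normalization and 0.78 without the 100 most abundant genes in the total. The second step has the opposite sign under other scalings, at -0.59 with median-ratio scaling, -0.74 with quantile normalization and -0.42 when the 100 most abundant genes are left out of the total. Over the whole window the difference was 0.21, 0.02 and 0.36 under the same 3 scalings, so it did not turn negative, while the other 6 genes lay between -5.05 and -1.83.

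Cpeb1 encodes the protein that binds the cytoplasmic polyadenylation element of stored messages, first repressing them and then recruiting the polyadenylation machinery. It lies on chromosome 7 from 81347026 to 81458001 and was the least abundant of the 7 in 1-cell embryos. Its values were 11.3 FPKM at the 1-cell stage, 4.65 at the early and 3.00 at the late 2-cell stage, and 2.78 with TSA. As deposited 69.3% of the decrease lay in the first step, but that share was 50.9% with median-ratio scaling and 36.0% after quantile normalization, so its timing depends on the scaling. Its first difference, -1.12, is close to the threshold and was -0.90 after quantile normalization and -0.76 with a pseudocount of 5.

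Lsm14b encodes a protein of the LSM14 family, which joins repressed messenger ribonucleoprotein particles. It lies on chromosome 2 from 180024900 to 180035466 and was the most abundant of the 7 in 1-cell and early 2-cell embryos. It was at 78.9 FPKM at the 1-cell stage, 51.8 at the early and 26.9 at the late 2-cell stage, and 22.2 with TSA. As deposited its differences were -0.60 and -0.92 in the 2 steps. Under the 3 other scalings the second step passed 2-fold, at -1.52, -1.64 and -1.35, and the first was smaller, at -0.46, -0.40 and -0.48. Its whole difference of -1.52 was the smallest among the 6 genes that were lower, and it kept second place by level in both late 2-cell columns, behind Ybx2.

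**Figure D2:**
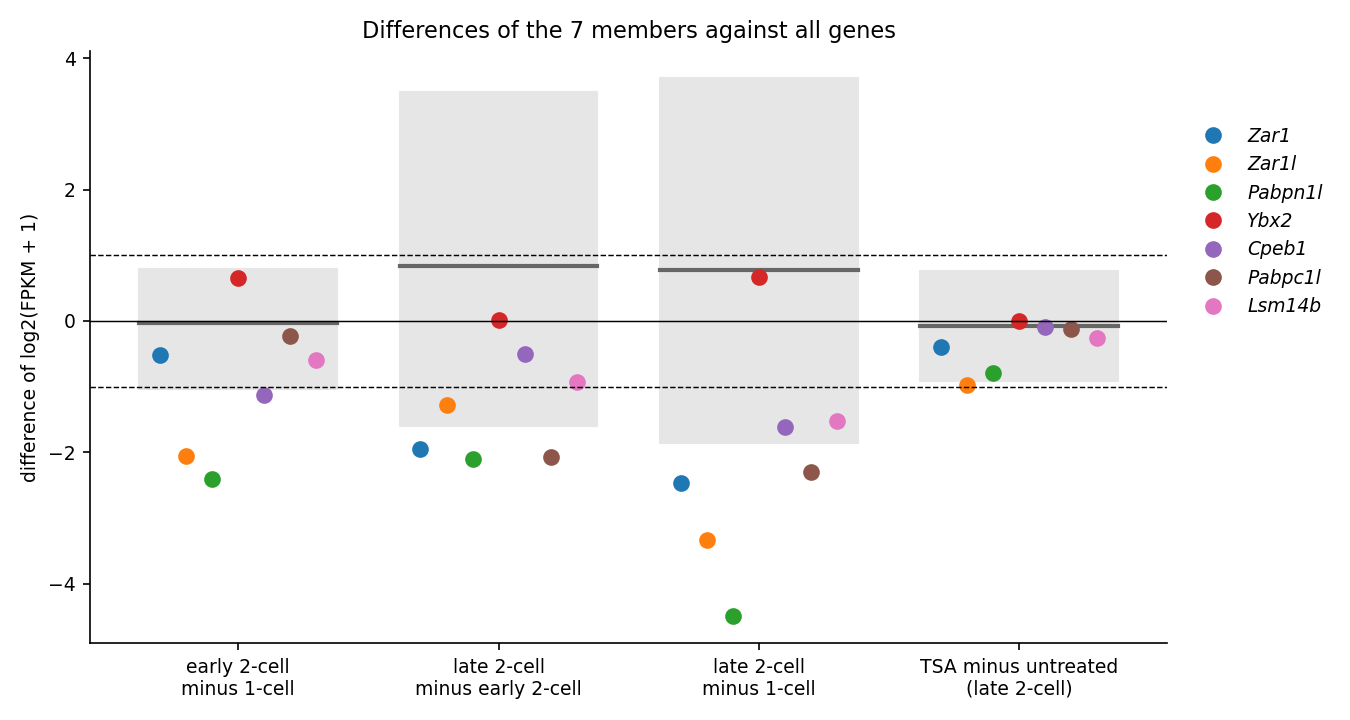
Difference of log2(FPKM + 1) of each of the 7 genes (coloured points, y axis) in the 4 comparisons (x axis), over the range from percentile 5 to percentile 95 of 13410 genes (grey boxes) with their median (dark line) and the 2-fold threshold (dashed lines). Over the whole window Pabpn1l, Zar1l, Zar1 and Pabpc1l lie below the box, whose lower edge is at -1.86, and Ybx2 lies near its median.

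Of the 7 genes, 5 overlap no other RefSeq gene. Pabpn1l overlaps the microRNA gene Mir6396, and the span of Cpeb1 holds the pseudogenes Gm18922 and Rpl7a-ps9. Whether fragments were counted by strand is not given in the sources used here.

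The promoters of 3 of these genes are shown because Zar1l and Pabpn1l had the lowest differences and Ybx2 stood apart. Each is 250 bases before to 50 bases after a transcription start site (RefSeq, GRCm38.p6), printed 5′ to 3′ on the strand of the gene, with matches to 4 motifs in capitals. The motifs, searched on both strands, were the E-box CANNTG, bound by basic helix-loop-helix factors such as the oocyte factor Figla, the elements TAATTG and TAATTA of the oocyte homeobox factor Nobox, and the TATA box TATAAA. No 2 of these motifs overlapped in the 3 windows. They lie at chr5:150518110-150518409 on the minus strand, chr8:122622686-122622985 on the minus strand and chr11:69935649-69935948 on the plus strand.
Zar1l: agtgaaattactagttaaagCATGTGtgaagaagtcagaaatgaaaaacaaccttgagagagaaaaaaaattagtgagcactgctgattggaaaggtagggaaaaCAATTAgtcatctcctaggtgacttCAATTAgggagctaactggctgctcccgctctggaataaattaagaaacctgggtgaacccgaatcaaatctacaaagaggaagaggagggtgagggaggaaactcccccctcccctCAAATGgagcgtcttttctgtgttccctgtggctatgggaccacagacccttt
Pabpn1l: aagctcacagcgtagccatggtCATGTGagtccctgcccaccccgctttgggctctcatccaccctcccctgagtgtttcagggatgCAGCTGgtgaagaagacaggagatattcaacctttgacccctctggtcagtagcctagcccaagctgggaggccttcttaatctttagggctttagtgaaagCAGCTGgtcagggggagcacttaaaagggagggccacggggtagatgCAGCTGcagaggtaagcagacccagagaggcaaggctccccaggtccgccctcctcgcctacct
Ybx2: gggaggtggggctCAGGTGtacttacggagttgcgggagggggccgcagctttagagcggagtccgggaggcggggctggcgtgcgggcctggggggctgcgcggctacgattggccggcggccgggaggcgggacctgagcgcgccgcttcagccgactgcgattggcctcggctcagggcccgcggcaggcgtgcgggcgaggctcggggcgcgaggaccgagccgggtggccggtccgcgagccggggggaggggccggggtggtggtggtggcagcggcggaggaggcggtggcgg
RefSeq gives Ybx2 a second start site, whose window, chr11:69936078-69936377, is not printed and holds 0 of the 4 motifs, 32 CG dinucleotides and 75.33% GC. The Zar1l window holds 2 E-boxes and 2 matches to TAATTG, both on the reverse strand. The Pabpn1l window holds 4 E-boxes and the Ybx2 window shown 1, and neither holds a Nobox element or a TATA box. Among 27025 promoters of the same length, 1 per gene, 72.1% held CANNTG, 8.15% TAATTG, 5.31% TAATTA and 14.2% TATAAA. GC content was 44.33% for Zar1l, 57.67% for Pabpn1l and 78.0% for Ybx2, against a median of 52.67% over all promoters, and CG dinucleotides numbered 3, 5 and 40, against a median of 7. Lsm14b and Cpeb1, which were lower at the late 2-cell stage, also have CG-rich windows with 40 and 33 CG dinucleotides, whereas those of Pabpc1l and Zar1 hold 7 and 17. These are matches of letters in 1 window per start site, and nothing is drawn from them about binding.

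TSA-treated embryos were set against untreated embryos of the same age at the late 2-cell stage. At 2-fold, 0 of the 7 genes were lower and 0 higher, against 3.88% and 2.39% of all genes. All 7 differences lay below 0 as deposited, with a median of -0.27, while 57.0% of all genes lay below 0 with a median of -0.08. The sign depends on the scaling for the genes nearest 0: 5 of 7 lay below 0 with median-ratio scaling and with quantile normalization, and 6 of 7 without the 100 most abundant genes in the total. Of the 2-fold differences among all genes, 38.1% were higher with TSA as deposited and 58.2% with median-ratio scaling.

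Zar1l and Pabpn1l, the genes that had dropped furthest by the early 2-cell stage, were also the lowest with TSA. For Zar1l the values were 0.763 FPKM in treated and 2.48 in untreated embryos, and the difference was -0.98. Pabpn1l was at 0.455 against 1.51 FPKM, a difference of -0.79. In plain FPKM these are 3.25-fold and 3.32-fold, and with a pseudocount of 0.1 the differences were -1.58 and -1.54. They were the only 2 of the 7 that were at least 1.5-fold lower on the deposited scale, where 14.9% of all genes were. Both values with TSA are under 1 FPKM, where depth is unknown and an added 1 shrinks a difference.

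The other 5 genes lay between -0.40 and -0.003 with TSA. Zar1 was at 2.28 against 3.31 FPKM, a difference of -0.40, and Lsm14b at 22.2 against 26.9, a difference of -0.27. Pabpc1l and Cpeb1, at -0.12 and -0.08, lay close to the median of all genes. Ybx2 stood at 32.8 FPKM against 32.9. Of the 15 oocyte and egg markers, 14 lay below 0 with TSA as deposited, with a median of -0.28. Of all genes, 57.0% lay below 0. At 2-fold, 0 of the 15 were apart, against 3.88% lower and 2.39% higher of all genes. Among the markers checked under other scalings, H1foo and Zp3 lay at 0.07 and 0.02 with median-ratio scaling. After quantile normalization Dppa3 lay at 0.04. Not all of the 15 were checked in this way, so the sign of others may depend on the scaling as well. The median with TSA was -0.01 for 12 messages stored and recruited during oocyte maturation. It was -0.12 for the genes with at least 10 FPKM in 1-cell embryos. With median-ratio scaling the median was -0.13 for the oocyte and egg markers and 0.14 for the 12 messages. Whether these sets differ was not tested.

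Several of these proteins have relatives that are not restricted to germ cells, and the relatives were listed beside them. Of 13 relatives, 11 were in the table and 9 reached 1 FPKM in some column. At the late 2-cell against the 1-cell stage 3 of the 9 were at least 2-fold higher (Pabpc1, Pabpc4 and Pabpn1) and 2 lower (Lsm14a and Ybx3), with a median of 0.42, where 43.9% of all genes were higher and 13.2% lower. With median-ratio scaling or quantile normalization 2 were higher and 2 lower, with medians of -0.05 and -0.02.

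The poly(A)-binding proteins showed the widest contrast. Pabpn1, the nuclear poly(A)-binding protein of somatic cells, was at 55.3 FPKM at the 1-cell stage, 78.6 at the early and 501 at the late 2-cell stage, and 522 with TSA. Pabpn1l thus held 50.1% of the FPKM of this pair at the 1-cell stage, 11.0% at the early 2-cell stage, 0.30% at the late 2-cell stage and 0.0871% with TSA. Pabpc1, the general cytoplasmic poly(A)-binding protein, was at 2.81, 6.23, 69.3 and 110 FPKM, and Pabpc1l held 81.6%, 62.7%, 2.46% and 1.37% of that pair. Pabpc1l was thus above Pabpc1 up to the early 2-cell stage and below it afterwards, so the order of this pair turned between the early and late 2-cell stages. The whole differences of Pabpn1 and Pabpc1 were 3.16 and 4.21 and were above 1 under each scaling tried. Pabpc4, a further cytoplasmic form named after its values were seen, was at 24.9, 24.8, 66.3 and 80.5 FPKM.

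In the families of Lsm14b, Ybx2 and Cpeb1, the relatives Lsm14a, Ybx1 and Cpeb4 were above the member in every column. The order of these pairs thus did not turn. Lsm14a, at 566, 670, 269 and 255 FPKM, was above Lsm14b in every column and was also lower at the late 2-cell stage. Its whole difference was -1.07, or -0.88 after quantile normalization. Lsm14b held between 7.19% and 12.2% of that pair. Ybx1, the Y-box protein of somatic cells, was at 144, 138, 193 and 280 FPKM, with a whole difference of 0.42 that was -0.05 with median-ratio scaling. Ybx3 was at 30.4, 36.6, 10.8 and 7.66 FPKM, a whole difference of -1.41, so that Ybx2 held 40.1% of the FPKM of Ybx2 and Ybx3 at the 1-cell stage and 75.3% at the late 2-cell stage, passing its relative. Cpeb4, which takes part in later polyadenylation in meiosis, was at 35.2, 30.5, 35.1 and 45.2 FPKM, and Cpeb1 went from 24.3% to 7.89% of that pair between the 1-cell and late 2-cell stages. Processed copies of Pabpc1 and Ybx1 are scattered through the genome, so fragments may be shared between them and these values are uncertain.

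**Figure D3:**
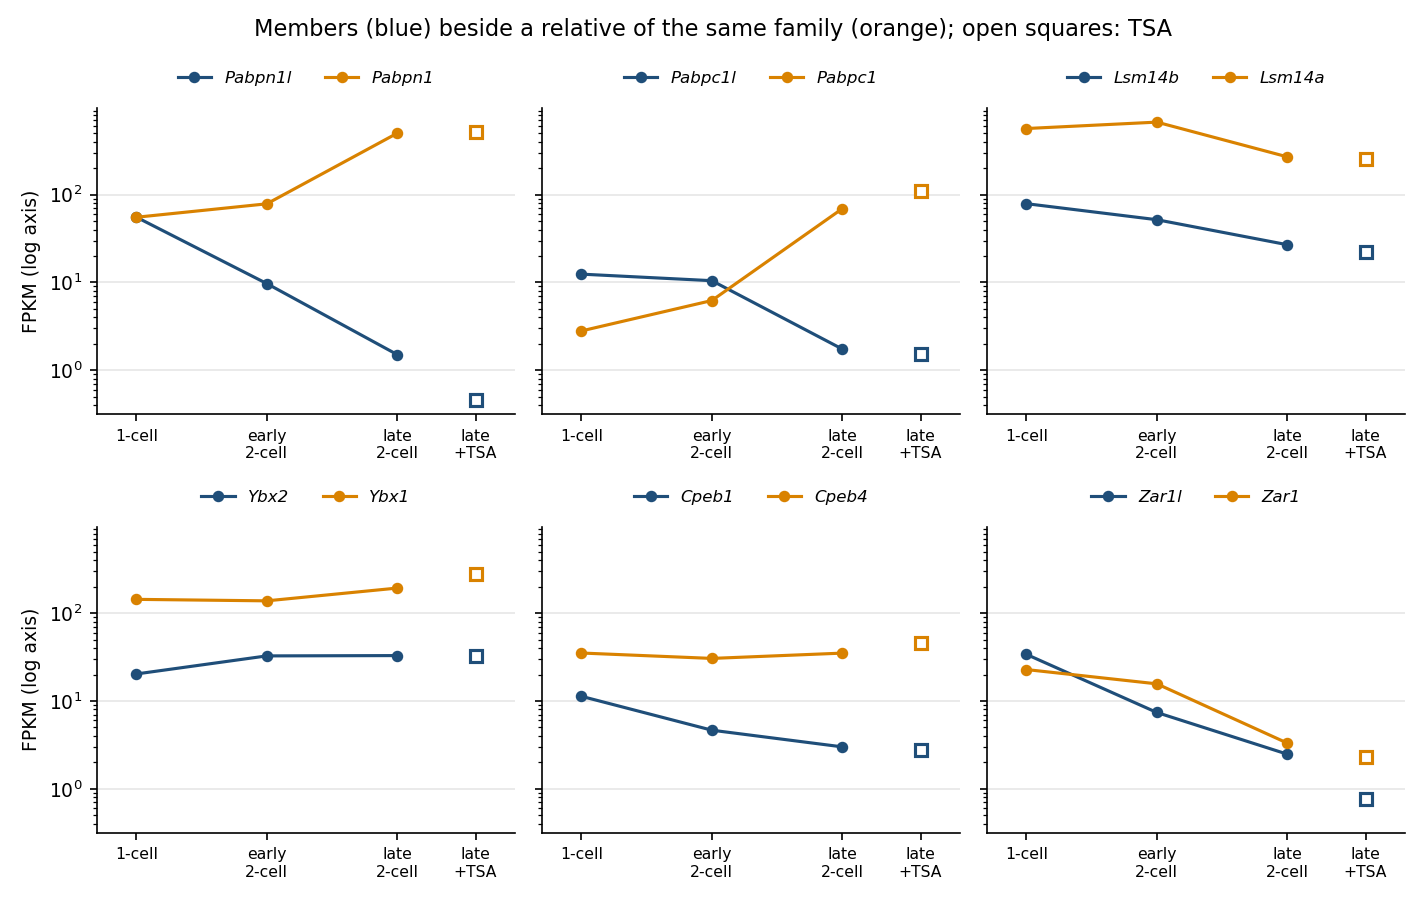
FPKM (y axis, log scale) of 6 of the 7 genes (blue) and of a relative (orange) by stage, with circles for untreated and open squares for TSA-treated embryos and 1 deposited value per point. Zar1 is drawn as the relative of Zar1l. Pabpn1l and Pabpn1 start level at 55.4 and 55.3 FPKM and part to 1.51 and 501 FPKM, while Lsm14b and Lsm14a both decrease.

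The remaining genes of the pathway were described from lists. In the list of cytoplasmic polyadenylation 16 of 17 genes were in the table. At the late 2-cell against the 1-cell stage 7 of the 16 were at least 2-fold higher and 3 lower, with a median of 0.57, which is near the 43.9% higher and 13.2% lower of all genes. After quantile normalization 4 were higher and 4 lower, with a median of 0.02. Dazl, a germ cell protein that works with Cpeb1 on stored messages, was at 270 FPKM at the 1-cell stage, 135 at the early and 37.4 at the late 2-cell stage, and 21.4 with TSA. Papolg, a poly(A) polymerase, was at 16.4, 3.05, 1.55 and 1.40 FPKM, and its first difference of -2.10 lay between those of Zar1l and Pabpn1l. Fip1l1, of the cleavage and polyadenylation complex, was at 22.9, 15.7, 6.43 and 5.32 FPKM.

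Other parts of the same machinery were higher at the late 2-cell stage. Papola, the canonical nuclear poly(A) polymerase, was at 17.9 FPKM at the 1-cell stage, 16.4 at the early and 101 at the late 2-cell stage, and 118 with TSA. Of the cleavage and polyadenylation complex, Cpsf3, its nuclease, was at 12.4, 5.05, 43.6 and 47.5 FPKM and Cpsf4 at 6.00, 7.65, 36.4 and 68.5. Other genes of the list differed little over the window as deposited. Wdr33 was at 74.7, 106, 83.7 and 108 FPKM, Papd4, the cytoplasmic poly(A) polymerase also called Tent2, at 17.2, 24.2, 19.3 and 19.3, and Cpsf2 at 27.8, 24.4, 25.6 and 19.6. The whole differences of Wdr33 and Papd4, 0.16 and 0.16, were below 0 under each of the 3 other scalings.

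Among 18 genes of masking and translational repression, 7 were at least 2-fold lower and 3 higher at the late 2-cell against the 1-cell stage, with a median of -0.22, beside 13.2% lower and 43.9% higher of all genes. Under the other scalings 8 were lower and 2 or 3 higher, with medians from -0.74 to -0.52. Eif4e1b, an oocyte form of the cap-binding protein, was at 76.7, 62.0, 31.1 and 22.2 FPKM, and Eif4enif1, which ties cap-binding protein to repression, at 48.4, 35.2, 18.8 and 17.0. Both lost FPKM in each step, as Lsm14b did. Stau1, a double-stranded RNA-binding protein, was at 63.8 FPKM at the 1-cell stage, 9.55 at the early and 23.9 at the late 2-cell stage, and 23.3 with TSA, so its lowest value was at the early 2-cell stage. Its relative Stau2 was at 23.8, 10.7, 8.34 and 7.95 FPKM and Igf2bp2, an mRNA-binding protein, at 34.4, 10.4, 8.96 and 10.5. Higher at the late 2-cell stage were Ddx6, the helicase partner of LSM14 proteins, at 7.47, 4.00, 20.0 and 24.9 FPKM, and Khdrbs1, an RNA-binding signalling protein, at 11.9, 13.6, 73.6 and 104. The whole difference of Ddx6, 1.31, was 0.87 with median-ratio scaling and 0.44 after quantile normalization.

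Of 9 genes of egg-to-embryo mRNA clearance in the table, 3 were lower by 2-fold or more and 2 higher over the whole window, with a median of -0.47, beside 13.2% and 43.9% of all genes. In the first step 0 of the 9 were 2-fold apart, where 5.37% of all genes were lower and 2.8% higher. Btg4, the adaptor that brings the deadenylase to maternal messages, was at 1460, 1514, 330 and 266 FPKM, so it had kept its level at the early 2-cell stage, where its partner Pabpn1l was at 17.5% of its 1-cell FPKM. The deadenylase subunits Cnot6l and Cnot7 were at 253, 230, 78.9 and 48.7 FPKM and at 642, 799, 423 and 322. Dcp1a, of the decapping complex, was at 47.9, 30.1, 10.8 and 9.05 FPKM, while the decapping enzyme Dcp2 was at 162, 138, 197 and 108. Zcchc11, a uridylyltransferase also called Tut4, was higher at the late 2-cell stage, at 3.97, 2.25, 28.8 and 30.8 FPKM. Zfp36l2, which binds AU-rich messages, was at 1.23, 2.32, 6.26 and 6.28 FPKM and Ythdf2, a reader of methylated mRNA, at 55.1, 47.3, 80.1 and 107. Zfp36l2 passed 2-fold as deposited but not after quantile normalization, where its whole difference was 0.62. Under the other scalings 3 or 4 genes of the list were lower and 1 or 2 higher.

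Among 12 messages known to be stored and then recruited during oocyte maturation, 4 were lower by 2-fold or more and 2 higher over the whole window, with a median of -0.59, beside 13.2% and 43.9% of all genes. Under the other scalings 5 to 7 were lower and 1 or 2 higher. Plat, tissue plasminogen activator, decreased early, at 128 FPKM at the 1-cell stage, 31.3 at the early and 16.6 at the late 2-cell stage, and 13.2 with TSA. Slbp, which processes histone mRNA, and Ccnb2, a B-type cyclin, decreased late, at 1239, 1096, 214 and 215 FPKM and at 258, 347, 49.5 and 69.4. Cdc25c, a phosphatase that activates Cdk1, was higher at the late 2-cell stage, at 2.74, 2.46, 92.8 and 135 FPKM, as was Tex19.1, at 6.54, 8.87, 19.4 and 35.3, whose whole difference of 1.44 was 0.55 after quantile normalization. Bub1b, of the spindle checkpoint, was at 18.5, 7.27, 26.4 and 23.3 FPKM and Ccne2, an E-type cyclin, at 73.8, 58.6, 46.6 and 28.1.

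With TSA, 1 gene of these 5 lists was 2-fold apart, Sympk, the scaffold of the polyadenylation complex, which was at 0.746 FPKM against 3.06 and was named after its values were seen; of all genes, 3.88% were lower and 2.39% higher. After quantile normalization 0 were, and with median-ratio scaling Cpsf4 was 2-fold higher as well. Largest among the named genes were Cpsf4, with a difference of 0.90, and Dcp2, with -0.87. Several of the named genes share positions with another protein-coding gene in RefSeq, among them Cpsf3, Fip1l1, Dcp1a, Cnot7, Btg4, Eif4enif1 and Ccne2.

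**Figure D4:**
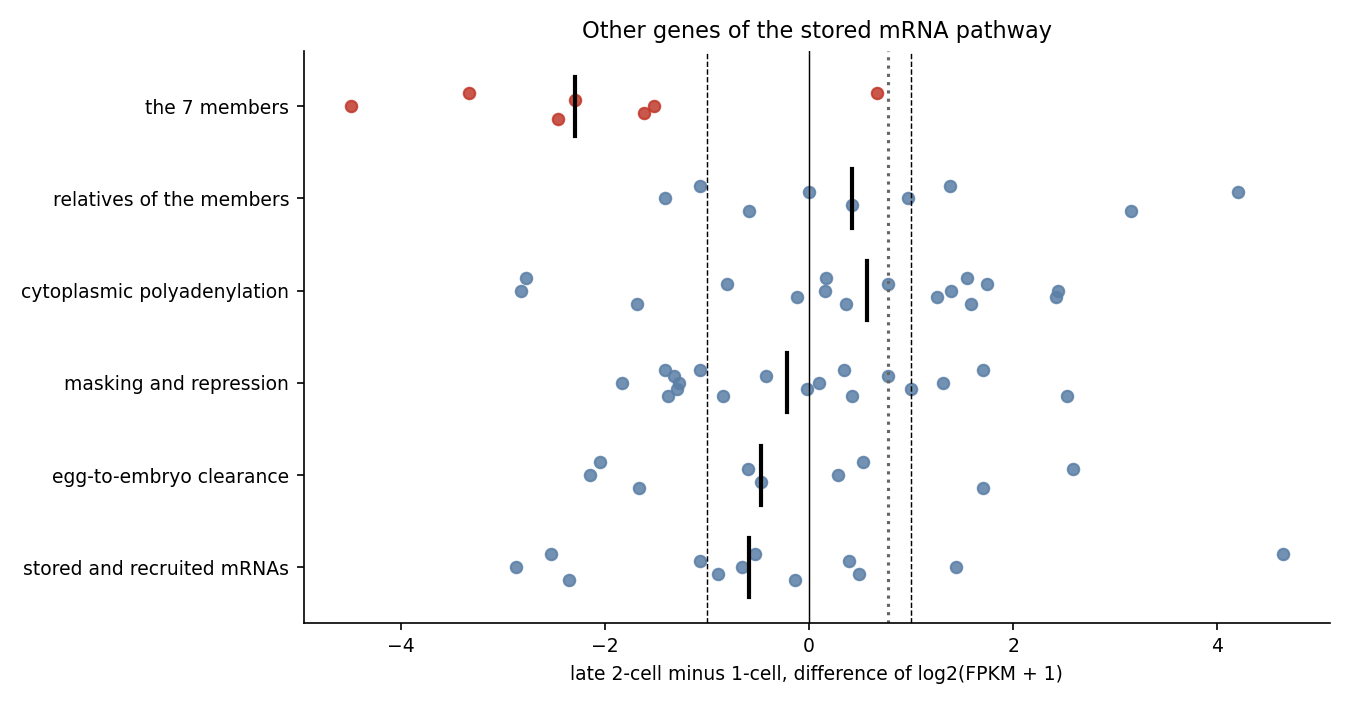
Difference of log2(FPKM + 1) between late 2-cell and 1-cell embryos (x axis) for the 7 genes (red) and for genes of 5 pathway lists that reached 1 FPKM in any column (blue), with the median of each list (black bar), the median of all genes (dotted line, 0.78) and the 2-fold threshold (dashed lines). Points are shifted up and down for visibility. The median of the 7 is at -2.29 and those of the lists run from -0.59 to 0.57.

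Genes with profiles most like those of the 7 were searched among 8551 genes that reached 5 FPKM in 1 or more columns, predicted genes left out, by the Euclidean distance between centred log2(FPKM + 1) profiles over the 4 columns. With 4 points per profile, close matches to a plain decrease are easy to find. Closest to Zar1 were Psmd10 (0.04), Epsti1 (0.10) and Bard1 (0.10), and closest to Pabpc1l were Nae1 (0.05), Eif1b (0.06) and Emc2 (0.11). Closest to Lsm14b were Cenpj (0.04), Il10rb (0.07) and Nsf (0.09), and closest to Cpeb1 were Ccdc174 (0.09), Sec62 (0.09) and Timm9 (0.10). Ybx2 had its nearest profiles in Hsd17b13 (0.13), Tmem67 (0.14) and Tsfm (0.15).

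Zar1l and Pabpn1l had no close match. The nearest to Zar1l were Znrd1as (0.56), Fbxw26 (0.59) and Hist1h2aa (0.61). The nearest to Pabpn1l were Zfp58 (0.53), Ccdc172 (0.59) and Fbxw26 (0.66). Fbxw26, near to both, was at 430 FPKM at the 1-cell stage, 122 at the early and 28.1 at the late 2-cell stage, and 19.9 with TSA. Ccdc172 ended slightly lower than Pabpn1l, at 33.1, 9.97, 1.18 and 0.387 FPKM.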

How the data were processed

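RNA was measured as poly(A) RNA in cloned mouse embryos. Per the file headers, the authors deposited log2(FPKM + 1) values, with 1 column per group. The submitters' processing notes list, with no roles, the build mm10, StringTie 1.3.4, HISAT2 2.1.0 and Cufflinks among others. No source used here gives the annotation, or says how 5 libraries became 1 column. The 1-cell column is named by 13 h and was matched to its group by the collection time in the labels' protocols. A further 2 columns, which no labelled RNA library matches, were left out.

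Values were turned back to FPKM with Python 3.11.15 and pandas 2.3.3. All genes with at least 1 FPKM in at least 1 of the 4 columns were compared. No test could be fitted to 1 value per group. The difference and call steps were tested on simulated data. Genes of 5 pathway lists were named by a rule: in each comparison, the 2 highest and 2 lowest differences where the higher column reached 5 FPKM. A gene that this rule names is not reported here. For 3 marker lists sums and counts are given instead, with some of their genes. The 7 genes and all lists were chosen with earlier results of these data known, and the set of genes with at least 10 FPKM in 1-cell embryos after the values were seen. Promoters came from RefSeq (GRCm38.p6), and all 7 genes matched by symbol.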

Additional observations from a re-analysis of the deposited data

How the results depend on the processing

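Other pseudocounts (0.1 and 5), 3 other scalings and a 1.5-fold threshold were tried. Of 140 differences of single genes under other settings, 0 reversed a 2-fold difference, 97 kept their side of 2-fold and stayed within 1.5 times of their size, and 43 did not. Values of the group that moved were as follows. The median between the early and late 2-cell stages was -0.83 with a pseudocount of 5 and -2.33 after quantile normalization, and the median over the whole window was -1.40 with a pseudocount of 5. The median with TSA was -0.12 with median-ratio scaling. With a pseudocount of 0.1, 2 genes were at least 2-fold lower with TSA, as were 2 at a threshold of 1.5-fold. At 1.5-fold, 1 gene (Ybx2) was higher in the first step and 1 over the whole window. The count of 6 lower genes over the whole window was the same under each alternative. Counts of all genes with TSA under a filter of 5 FPKM were 309 lower and 186 higher, against 520 and 320, and among genes with at least 10 FPKM in 1-cell embryos, a set added after seeing the data, 108 and 34. Leaving out a replicate was not possible with 1 value per group, and no paired analysis was possible because the columns carry no replicates. Depth is unknown, which limits what can be said of values under 1 FPKM.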
